A study of Mus musculus with 4 samples.

Results

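Cyclin-dependent kinases drive cells through division, and a small set of proteins holds them back. INK4 proteins (Cdkn2a, Cdkn2b, Cdkn2c and Cdkn2d) bind the kinases CDK4 and CDK6, CIP/KIP proteins (Cdkn1a, Cdkn1b and Cdkn1c) bind cyclin-kinase complexes more broadly, and the phosphatase Cdkn3 removes an activating phosphate from CDK2 and CDK1. The retinoblastoma proteins Rb1 and Rbl1 act downstream: unphosphorylated, they bind E2F transcription factors and keep S-phase genes off, and plasma cells, the end stage of the B lineage, are known for leaving the cell cycle with such brakes in place. These 10 genes are described here. They were chosen by name, and the platform annotation finds all 10 among the 18193 genes named by probe sets of 1 gene. They have 16 of the 45037 probe sets.

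RNA came from IgA-positive cells of the small intestine. The mice were Balb/c females aged 9 weeks, wild type by the sample titles and untreated. The cells had been split by whether they carried CD11b on their surface, and 2 arrays hold the CD11b-positive fraction and 2 the CD11b-negative fraction. For 1 array of each fraction, 1 µg of RNA was labelled with the One-Cycle kit, and for the other 0.1 µg was labelled with the 3' IVT Express kit, so that the fractions can be compared within each kit. The labels do not say whether arrays came from separate animals or sorts, or whether animals were pooled, so the p-values reflect the spread among these 4 arrays alone, and that spread may be technical. Signals below are MAS5 signals after quantile normalization between arrays, with differences on a log2 scale after adding a pseudocount of 3. They are CD11b-positive minus CD11b-negative, with the standard error (SE) of the limma fit that treats the kit as a block.

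The sort and the cell type were checked first. Itgam, the gene of CD11b, had signals of 189 and 109 in CD11b-positive arrays and of 28.3 and 15.8 in CD11b-negative arrays (One-Cycle kit first here and in all such pairs). Of 11 plasma cell markers tested, 0 were higher in CD11b-positive cells and 1, Sdc1, was lower, and all arrays held plasma cell transcripts at high signal, with Xbp1 between 8435 and 9033. Markers of other cell types were measured too, with calls at a limma adjusted p under 0.05 in the blocked fit, by which 3.73% of all genes tested were higher and 4.14% lower. Of 16 epithelial markers 14 were lower in CD11b-positive cells and 0 higher, with summed signals of 3780 and 2707 against 6950 and 6914, and none was at 0. Of 13 immediate early genes, which tissue dissociation can also switch on, 12 were lower and 0 higher (summed signals of 14240 and 10070 against 22900 and 19330). Of 12 markers of T, NK and innate lymphoid cells 5 were lower and 0 higher (2828 and 1495 against 5619 and 2179). Of 11 macrophage, monocyte and dendritic cell markers 1, Itgax, was higher and 1, Cst3, lower. With both kits 5 of these markers were higher and 4 lower. Their median log2 difference was 0.68 with the One-Cycle and 0.0017 with the 3' IVT Express kit. C1qb read 58.9 and 34.1 against 16.1 and 21.0 without a call (limma adjusted p = 0.0528). Of 7 granulocyte and mast cell markers 1 was lower and 0 higher, and of 8 mature B cell and 9 stromal or endothelial markers none was called. On the deposited signals, the 3' to 5' ratio of the Actb control probe sets, a sign of RNA quality, was 1.43 and 1.61 in CD11b-positive arrays and 1.9 and 1.84 in CD11b-negative ones, without overlap, while Gapdh gave ratios of 0.682 and 0.71 against 0.685 and 0.704. The part of these cells and of RNA quality in the differences below was not tested.

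Promoters of Rbl1 and Cdkn3 are shown because these genes were the members called higher in the CD11b-positive fraction. The sequences are RefSeq's for build GRCm38.p6, which lists promoters for 8 of the 10 members, read 5′ to 3′ on the strand of the gene. Capitals mark 3 motifs searched on both strands: the E2F octamer in 4 spellings (TTTCGCGC, TTTGGCGC, TTTCCCGC and TTTGCCGC), the cell cycle homology region CHR (TTTGAA) and the CCAAT box (CCAAT). The marked matches do not overlap one another. The Rbl1 stretch is the minus strand of chr2:157204535-157204784, 250 bases up to the start of the gene, and the Cdkn3 stretch is the plus strand of chr14:46760291-46760460, the 170 bases of its window that lie before any listed start.
Rbl1: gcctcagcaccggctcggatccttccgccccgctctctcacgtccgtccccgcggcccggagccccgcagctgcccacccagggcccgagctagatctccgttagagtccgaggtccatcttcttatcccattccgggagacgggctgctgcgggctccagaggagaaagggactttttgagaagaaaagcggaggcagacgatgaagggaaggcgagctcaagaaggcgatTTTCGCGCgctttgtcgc
Cdkn3: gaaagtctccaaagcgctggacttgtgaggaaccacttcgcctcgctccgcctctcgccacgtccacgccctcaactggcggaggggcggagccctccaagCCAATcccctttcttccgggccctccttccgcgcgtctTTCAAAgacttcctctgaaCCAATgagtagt

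The Rbl1 stretch holds an E2F octamer, TTTCGCGC, that begins 18 bases before the start of transcription. Such an octamer lies in the 250 upstream bases of 1.86% of 32851 promoters, and among the 11 listed windows of the members in 2, that of Rbl1 and 1 of those of Cdkn2a (TTTCCCGC, 99 bases before the start). The Cdkn3 window holds a CHR, read on the opposite strand, and CCAAT boxes. The CHR lies 111 bases and the CCAAT boxes 149, 92 and 34 bases before the start that the window is set on. Another listed start of the gene lies further upstream, where the printed stretch ends, so the box at 34 bases lies after that start. A CHR is found in 16% of all windows and a CCAAT box in 33.8%; among the members' windows a CHR also lies before Cdkn2b, and CCAAT boxes before Cdkn1b and Cdkn2d. These matches describe letters in a window and were not measured as binding sites.

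Of the 10 members, 2 rose in the CD11b-positive fraction, Cdkn3 by 1.87-fold and Rbl1 by 1.58-fold, and none fell. The inhibitors Cdkn1a and Cdkn2b had lower signals in CD11b-positive cells with either kit, 1.51-fold and 1.65-fold on average, without passing the test. Rb1 and Cdkn2c stood slightly higher with both kits, and Cdkn1b and Cdkn2d went opposite ways in the kits. All 10 members passed the low-signal filter. Over all 12645 genes tested with limma at an adjusted p under 0.05, 3.73% were higher and 4.14% lower (7.88% in all), against 2 of 10 members higher and 0 lower, a count too small to set the members apart. The median log2 difference of the members was 0.23, beside 0.0027 for all genes tested. Both CD11b-positive arrays lay above both CD11b-negative ones for 4 members (18.3% of all genes) and below them for 2 (17.3% of all genes).

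Those calls rest on the model. Without the kit as a block limma called none of the 12645 genes (0 members; unadjusted p under 0.05 for 3 members, Cdkn3, Rbl1 and Cdkn2b, and for 842 genes, 6.66%), and with the block but without the trend of variance on signal it also called none. With 2 arrays in each fraction, the smallest p that an exact permutation test ignoring the kits allows is 0.333. Permuting within kits leaves fewer arrangements, so the smallest p it allows is larger.

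**Figure D1:**
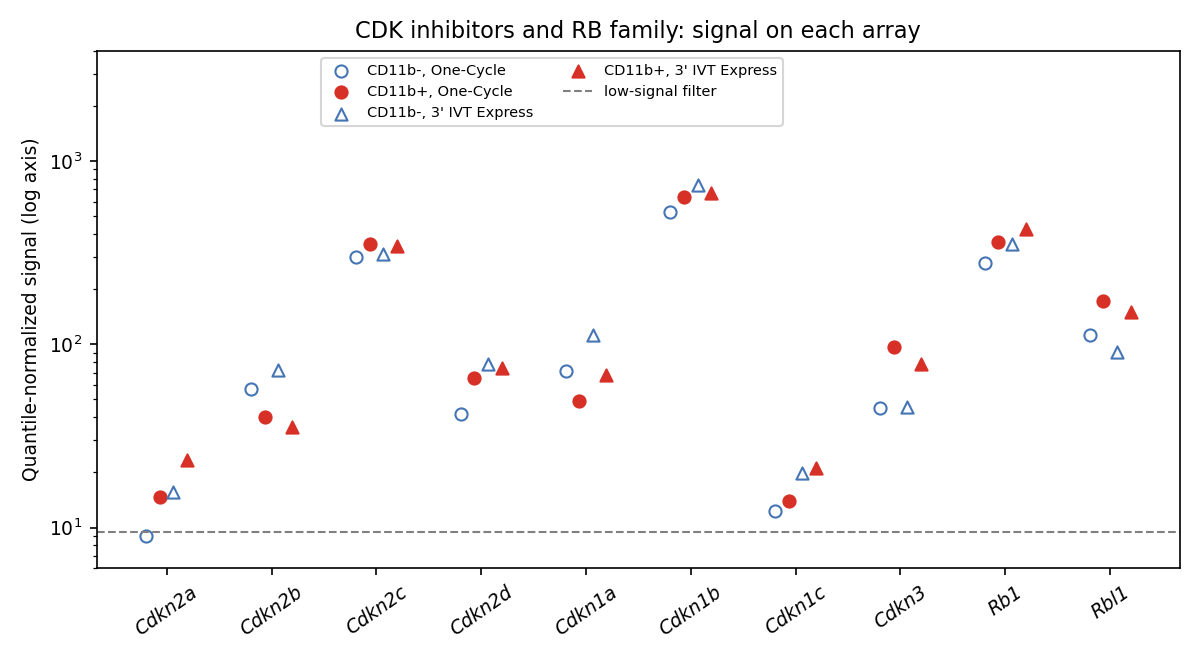
Quantile-normalized signal (log axis) of the probe set used for each member on each of the 4 arrays, with circles for the One-Cycle and triangles for the 3' IVT Express kit, open blue for CD11b-negative and filled red for CD11b-positive arrays. For Cdkn3 and Rbl1 both red points lie above both blue points, for Cdkn1a and Cdkn2b below them, and Cdkn2a and Cdkn1c lie close to the low-signal filter at a signal of 9.51 (dashed); heights of different genes are not comparable, since probe sets differ in affinity.

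Which of these brakes could be seen at all was read against 44 probe sets of olfactory receptors, genes that these cells should lack. Their 95th percentile was a signal of 17.4 to 26.4, depending on the array. By that measure 8 of the 10 members were above background on all 4 arrays. The exceptions were Cdkn2a, above it on 0 arrays, and Cdkn1c, on 1. With the 99th percentile the count was 6, since Cdkn2d and Cdkn3 then stayed under it on 1 array each. A signal under this level does not show that a gene is off.

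Of the retinoblastoma family, Rbl1 (p107), which in cycling cells is itself switched on by E2F, had signals of 173 and 150.5 in the CD11b-positive arrays and of 112 and 90.6 in the CD11b-negative arrays. Both CD11b-positive arrays stood above both CD11b-negative ones. Its log2 difference was 0.66 ± 0.18 (SE, n = 2 arrays per fraction; limma adjusted p = 0.0211), with 0.61 for the One-Cycle and 0.71 for the 3' IVT Express kit. A second probe set of Rbl1 gave 76.4 and 74.004 against 32.4 and 41.9, again without overlap, and a log2 difference of 0.97 (limma adjusted p = 0.0325 in the fit per probe set). The other probe sets of Rbl1 lay under the low-signal filter. One of them read 10.155 and 14.3 against 3.53 and 4.96, and the other read 6.11 and 13.2 against 10.01 and 5.2, which overlap. Leaving out 1 array gave a difference of 0.51 to 0.81, each without a call.

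Rb1, the retinoblastoma protein proper, had signals of 359.9 and 424 in CD11b-positive arrays, against 279 and 351 in CD11b-negative ones. The arrays did not overlap, though the CD11b-positive One-Cycle array was close to the CD11b-negative array of the other kit. The log2 difference was 0.32 ± 0.13 (SE, n = 2 per fraction), with 0.36 and 0.27 in the kits, and it missed the threshold (limma adjusted p = 0.154; 95% interval 0.05 to 0.58). Its other probe set lay under the filter at 0.489 and 10.9 against 0.711 and 6.42. Rbl2 (p130), the remaining protein of the family and no member here, had signals of 197 and 197 against 207 and 194 and a log2 difference of -0.02 ± 0.15 (SE, n = 2 per fraction; limma adjusted p = 0.969). The differences of Rbl1, Rb1 and Rbl2 were not tested against each other.

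Cdkn3, whose transcript is known to peak late in the cell cycle, had signals of 97.1 and 78.2 in CD11b-positive arrays, against 45.01 and 45.5 in CD11b-negative ones. The CD11b-negative arrays were nearly alike, and both CD11b-positive arrays stood above them. The log2 difference was 0.90 ± 0.25 (SE, n = 2 per fraction; limma adjusted p = 0.0211), with 1.06 and 0.74 in the kits. The call was lost when arrays were scaled to a common trimmed mean (adjusted p = 0.0593) and without a low-signal filter (adjusted p = 0.0637). Leaving out 1 array gave 0.75 to 1.05, each without a call.

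**Figure D2:**
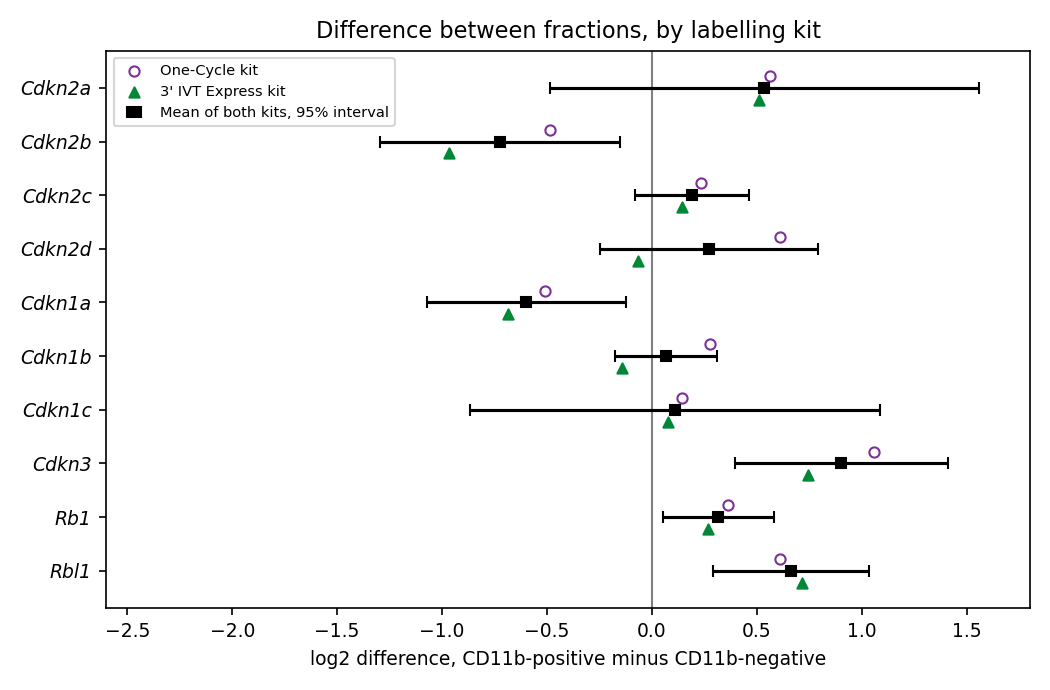
The log2 difference between fractions (CD11b-positive minus CD11b-negative) for each member, with black squares and bars for the limma estimate and its 95% interval, not adjusted for the number of genes, and open circles and green triangles for the difference within each kit. Intervals of Cdkn3, Rbl1 and Rb1 lie above 0 and those of Cdkn1a and Cdkn2b below it, while adjustment over all genes left calls for Cdkn3 and Rbl1; the widest intervals are those of Cdkn2a and Cdkn1c.

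Among the CIP/KIP inhibitors, Cdkn1a (p21), a target of p53 and of other stress signals, had signals of 49.1 and 68.3 in CD11b-positive arrays, against 71.1 and 112 in CD11b-negative ones. The groups did not overlap, but the CD11b-positive array of the 3' IVT Express kit came within a few units of the CD11b-negative One-Cycle array. The log2 difference was -0.60 ± 0.23 (SE, n = 2 per fraction; limma adjusted p = 0.126; 95% interval -1.07 to -0.12), with -0.51 and -0.69 in the kits. Its second probe set read 33.5 and 22.4 against 37.9 and 46.1, and differed by -0.17 with the One-Cycle and by -0.95 with the 3' IVT Express kit. The epithelial and immediate early genes, whose values are given above, lay lower in the same arrays.

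Cdkn1b (p27), which accumulates in cells that have stopped dividing, had signals of 637 and 669 in CD11b-positive arrays, against 525 and 739.7 in CD11b-negative ones. The CD11b-negative arrays enclosed the CD11b-positive ones. The log2 difference was 0.07 ± 0.12 (SE, n = 2 per fraction; limma adjusted p = 0.827), with 0.28 and -0.14 in the kits. The 95% interval of -0.18 to 0.31 leaves room for a modest difference either way. A dimmer probe set of the gene read 20.9 and 24.1 against 8.37 and 25.1, with the CD11b-negative One-Cycle array alone low. Cdkn1c (p57), an imprinted inhibitor best known from development, was near background, at 13.96 and 21.1 against 12.4 and 19.85. It followed the kit more than the fraction, and its log2 difference of 0.11 ± 0.48 (SE, n = 2 per fraction; limma adjusted p = 0.943) was poorly determined.

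Among the INK4 inhibitors, Cdkn2c (p18), which mice need to form functional plasma cells, had closely matching signals within each fraction: 354 and 346 in CD11b-positive arrays, against 300.1 and 313 in CD11b-negative ones. The groups did not overlap and lay close together. The log2 difference was 0.19 ± 0.13 (SE, n = 2 per fraction; limma adjusted p = 0.479), with 0.24 and 0.15 in the kits and a 95% interval of -0.08 to 0.46. Cdkn2d (p19) had signals of 65.6 and 74.1 against 41.9 and 77.8. Again the CD11b-negative One-Cycle array stood apart as low while the other 3 arrays were alike, and the difference was 0.61 in that kit and -0.07 in the other (0.27 ± 0.25, SE, n = 2 per fraction; limma adjusted p = 0.637).

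Cdkn2b (p15), which transforming growth factor beta can induce, had signals of 39.9 and 35.5 in CD11b-positive arrays, against 57.1 and 72.3 in CD11b-negative ones. Both CD11b-positive arrays lay below both CD11b-negative ones. The log2 difference was -0.73 ± 0.28 (SE, n = 2 per fraction; limma adjusted p = 0.124; 95% interval -1.30 to -0.15), with -0.49 and -0.97 in the kits. Cdkn2a, the gene next to it, encodes both p16 and the p53 activator Arf, which its probe set does not separate by name. It read 14.7 and 23.5 against 8.997 and 15.6, in each kit higher in the CD11b-positive array but with overlap across kits (log2 difference 0.54 ± 0.50, SE, n = 2 per fraction; limma adjusted p = 0.635). These signals were below the olfactory receptor level on every array.

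**Figure D3:**
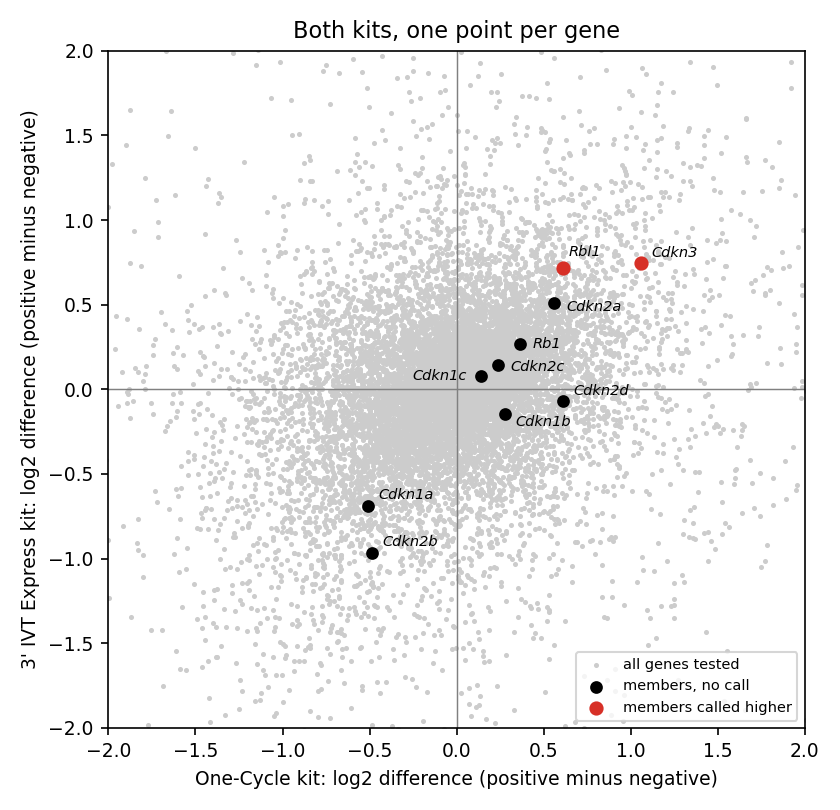
Log2 difference between fractions (CD11b-positive minus CD11b-negative) with the One-Cycle kit (horizontal) and the 3' IVT Express kit (vertical), with all genes tested in grey, members in black and the members called higher in red. Cdkn3 and Rbl1 lie up and to the right, Cdkn1a and Cdkn2b down and to the left, and Cdkn1b and Cdkn2d to the right but below 0 on the vertical axis; 247 genes with a difference beyond 2 in either kit are outside the plotted range.

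In both kits alike, the CD11b-positive array was higher for 6 members and lower for 2, while 31.6% of all genes were higher and 30.5% lower in both. The CD11b-negative One-Cycle array held the lowest signal of 7 members, where it held the lowest signal of 28.2% of all genes; it held the highest signal of 0 members and of 27.9% of all genes. Differences with that kit therefore lean on 1 array for several of them: without it, in a fit that has no block and so mixes in part of the kit difference, the log2 difference was -0.18 for Cdkn1b, -0.15 for Cdkn2d and -0.18 for Cdkn1c, each turned in sign, 0.22 for Cdkn2a and 0.15 for Rb1. Cdkn1a moved from -0.60 to -0.91 and Cdkn2b to -0.89. In RNA from mixed cells, fewer cells of a type and less RNA per cell cannot be told apart.

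Scaling mattered for the members with small differences. On the signals as deposited, where the median of all genes was itself shifted by 0.42 (log2), 5 members were called higher, and after median centring (shift 0.21) 4 were; over all genes the split was then 3655 higher to 154 lower and 1732 to 207, against 472 to 524 after quantile normalization. Relative to those shifts Rb1 stood at 0.43 and 0.42, Cdkn2c at 0.30 and 0.29 and Cdkn1b at 0.20 and 0.19, and Cdkn1a at -0.62 for both. Cdkn1c turned slightly lower with a common trimmed mean (-0.11). Relative to the shifts it was also lower on deposited signals (-0.12) and after centring (-0.09); the other 9 members kept their direction under all 4 other scalings, relative to the shift or not.

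The genes that these inhibitors act on or answer to were counted from lists chosen by function, with earlier results of these data known. Of 14 cyclins and kinases tested, 4 rose and 0 fell (median log2 difference 0.35). Those that rose serve S phase and mitosis, namely Ccna2 (2.55-fold, limma adjusted p = 8.62e-08), Cdk1 (1.94-fold), Ccne2 (2.00-fold) and Ccnb2 (1.71-fold). The direct partners of the INK4 proteins were not called: Cdk4 was at 0.19 ± 0.15 and Cdk6 at 0.47 ± 0.21 (log2, SE, n = 2 per fraction), with Ccnd2 at 0.0049 and Ccnd3 at -0.16, and Cdk2, a target of the CIP/KIP proteins, was at 0.38. A second probe set of Cdk6, nearly as bright, differed by -0.36 and -0.05 in the kits, and another, under the low-signal filter, by 1.35 and 1.42. Other probe sets of Ccnd2 ranged from -0.08 to 0.68, none called in the fit per probe set. Ccnd1, named after its value was seen, was at -0.58 without a call (limma adjusted p = 0.198), with -0.42 and -0.75 in the kits. Of 18 genes on the list of E2F, DP and MuvB genes, which also holds Rbl2, Mybl2 and Foxm1, 3 rose and 1 fell (median 0.32). Tfdp1, which pairs with E2F proteins, rose 1.68-fold, Rbbp4 1.33-fold and Lin54 1.61-fold, while E2f5, a partner of Rbl2, fell 1.90-fold (limma adjusted p = 0.00349) by its brightest probe set. The others of E2f5 differed by -0.37 and -0.04 (limma adjusted p = 0.495 and 0.974 in the fit per probe set), and averaging the gene's probe sets lost its call. The other probe sets of Rbbp4 differed by 0.32, 0.33 and -0.22 (limma adjusted p = 0.205, 0.386 and 0.694 in the fit per probe set). In that fit Lin54 lost its call (limma adjusted p = 0.0566). A second probe set of Lin54 differed by -0.16 with the One-Cycle and by 0.53 with the 3' IVT Express kit. E2f1 was at 0.33 (adjusted p = 0.564). Genes that E2F switches on for S phase rose in 14 of 21 and genes of G2 and mitosis in 16 of 20, with 0 lower in either list and medians of 0.92 and 1.12.

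Of 13 genes of inhibitor turnover, 4 rose and 1 fell (median 0.25). Those that rose were Cks1b, Cks2 (1.55-fold), Dtl and Pcna, while the ligase genes Skp1, Cul1, Rbx1, Cul4a, Cul4b, Ddb1 and Ubac1 were not called. Cks1b, the cofactor with which Skp2 marks p27 for destruction, rose 2.17-fold, at 2189 and 1396 against 1114 and 579 (limma adjusted p = 2.19e-08). Skp2 itself was at 48.9 and 35.3 against 26.2 and 34.3, a log2 difference of 0.43 ± 0.33 (SE, n = 2 per fraction; limma adjusted p = 0.539). Its kits gave 0.83 and 0.04. The other probe sets of Skp2, all dimmer, differed by 0.43 to 1.22, each higher with both kits. None was called in the fit per probe set (limma adjusted p from 0.2996 to 0.665). Dtl, which targets p21 on chromatin, rose 2.10-fold by its brightest probe set, and its platform Pcna rose 1.58-fold. The other probe sets of Dtl differed by 0.04 to 1.32, none called in the fit per probe set (limma adjusted p from 0.0938 to 0.966). One of them went opposite ways in the kits (-0.44 and 0.51). The gene that fell, named after its value was seen, was Rnf123, part of another ubiquitin ligase of p27 (1.40-fold lower, limma adjusted p = 0.0356). Its call was lost with a pseudocount of 1, a common trimmed mean, no low-signal filter and in the fit per probe set. Of 17 genes of the p53 pathway, 1 rose and 3 fell (median -0.18): Btg2 fell 1.47-fold, Perp 1.82-fold and Bbc3 1.55-fold, Sesn2 rose 1.84-fold, and Mdm2 was at -0.23 (adjusted p = 0.274). Perp is also an epithelial gene and Btg2 an immediate early one. Bbc3 differed by -0.27 with the One-Cycle and by -0.99 with the 3' IVT Express kit. It lost its call in the fit per probe set (limma adjusted p = 0.0577). The pathway had 2 genes called lower with a pseudocount of 1, no low-signal filter or a filter at the 70th percentile, and 4 with cyclic loess. Sesn2 differed by 1.72 with the One-Cycle and by 0.04 with the 3' IVT Express kit, and its second probe set went the other way (-0.22 and -0.44). No gene of the pathway was called higher with a pseudocount of 1 or 12, cyclic loess, no low-signal filter, a filter at the 70th percentile, averaged probe sets, without _s_at and _x_at probe sets or in the fit per probe set.

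Of 25 genes that regulate the inhibitors' transcription, 1 rose and 3 fell (median -0.18). Ezh2, the Polycomb methyltransferase that silences the Cdkn2a locus in dividing cells, rose 1.77-fold (505 and 581 against 315 and 294, limma adjusted p = 5.53e-05), and Cbx7, a Polycomb reader, fell 1.61-fold. Klf6, an activator of p21 transcription, fell 1.55-fold and Id2 1.56-fold. Foxo1 (-0.21), Foxo3 (-0.01) and Foxo4 (0.04), which activate Cdkn1b, and Bmi1 (-0.08) were not called. Their signs depended on the probe set. Others above the low-signal filter differed by 0.08 and -0.17 for Foxo1 and by 0.38 and 1.37 for Foxo3. For Foxo4 another gave -1.07 and for Bmi1 0.03, and none of these was called in the fit per probe set. On deposited signals and after median centring, which shift all genes upwards, 0 genes of these regulators and 0 of the p53 pathway were called lower, with 8 and 6 of the regulators and 4 and 1 of the pathway higher. In the same 2 settings 11 and 9 cyclins and kinases and 9 and 6 E2F, DP and MuvB genes were called higher, with 0 and 1 of the latter lower, and 7 and 4 genes of inhibitor turnover were higher with 0 lower. Without the kit as a block none of the genes named in these lists passed (limma adjusted p of at least 0.467).

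**Figure D4:**
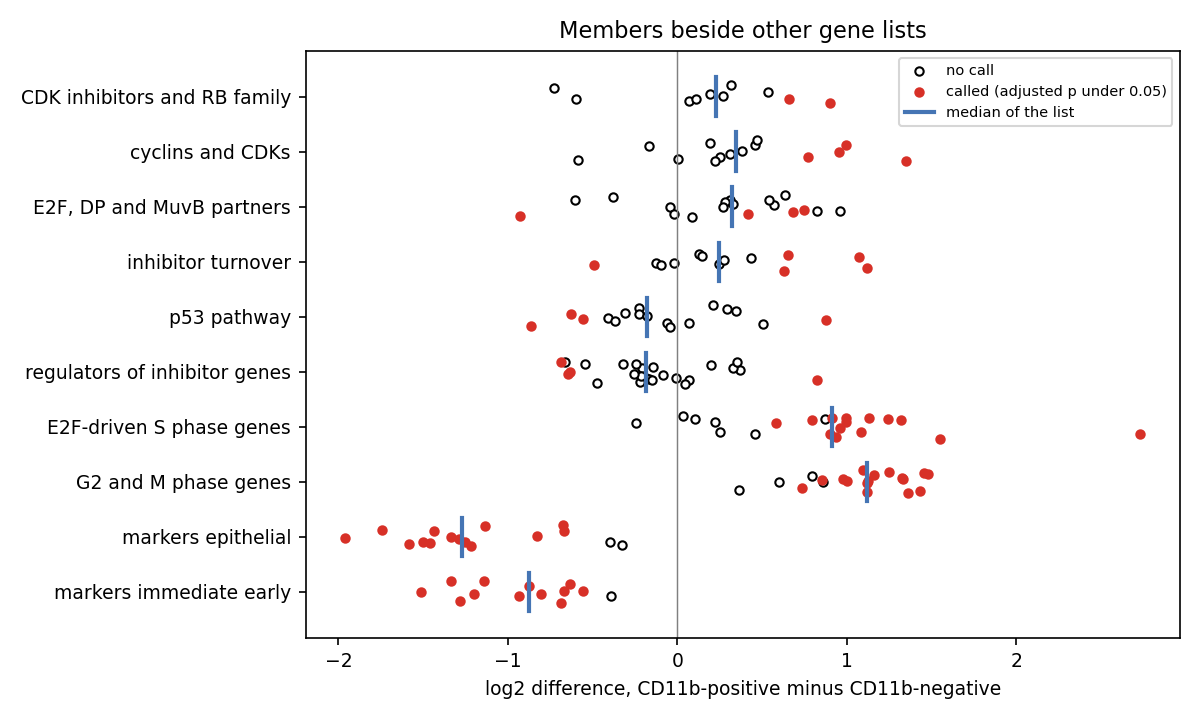
Log2 difference between fractions (CD11b-positive minus CD11b-negative), 1 point per gene tested, for the members and the other lists, with filled red points for genes called at an adjusted p under 0.05 in the fit with the kit as a block and blue bars for list medians; vertical scatter within a list has no meaning. The members are centred at 0.23, between the S phase and mitosis lists at 0.92 and 1.12 and the epithelial and immediate early lists at -1.27 and -0.87.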

How the data were processed

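The authors deposited intensity values, a MAS5 signal for each probe set and array. The submitters' processing notes name Affymetrix Expression Console as well; no version or scaling target is given in the sources used here. Their 2% trimmed means ran from 48.5 to 90.2, so the arrays were quantile-normalized. A pseudocount of 3 was added before log2, which understates differences of weak genes. Probe sets naming 1 gene (34945 of 45037; 932 name several and 9160 none) with a mean log2 signal above the 40th percentile (a signal of 9.51) were kept, with the brightest per gene. This left 12645 genes for limma (version 3.58.1, R 4.3.3), with moderated variances that follow signal, 2-sided p-values and Benjamini-Hochberg adjustment over all of them.

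The labelling kit named in the protocols was a block, since each kit holds 1 array of both fractions; deviations from the fraction means of arrays of the same kit correlated across genes (r = 0.387). With the block each gene keeps only 1 residual degree of freedom, so the test leans on the shared prior (25.6 degrees of freedom). It was tested on simulated data for this comparison (12645 genes, 200 changed, normal noise of the fitted size). At 2-fold the blocked fit found 56.8% of changes (5.8 false calls) and at 4-fold 92.4% (15.2 false calls), against 0% and 43.2% without the block; noise so simple favours the blocked fit. The number of arrays limits the precision.

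The members and lists were chosen with earlier results of these data known. So was the block as the main fit: it was known that 0 genes were called without it, although the pairing rests on the protocols. The filter was first run on mean linear signal (558 genes higher, 593 lower) and then changed to mean log2 signal, the earlier processing's reading, after those counts had been seen. Named were all members, up to 4 genes per list by smallest p, and a fixed set of partners. Ccnd1 and Rnf123 were named after their values were seen. Rbl1 and Cdkn3 promoters were shown because these members were called. Symbols are those of the platform annotation. Trp53 and Bax are not analysed here.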

Additional observations from a re-analysis of the deposited data

How the results depend on the processing

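Rbl1 was called higher in 11 and Cdkn3 in 9 of the 12 blocked alternatives, and both kept their direction in all 19. Without the replicate block 0 members and 0 genes were called, and likewise with no trend. On the signals as deposited, 5 members were called higher, with 3655 genes higher and 154 lower; after median centring, 4 members, 1732 and 207. A common trimmed mean and no low-signal filter left 1 member called higher, Rbl1. A pseudocount of 1 gave 312 genes higher. Leaving out 1 array, without the block, gave 0 members higher, 0 to 2 genes higher and 0 to 23 lower, where part of the kit difference enters. Signs turned for Cdkn1c with a common trimmed mean (-0.11). On leaving out 1 array they also turned for Cdkn1c (-0.18 to 0.39; lower when CD11b-negative replicate 1 or CD11b-positive replicate 2, at -0.14, was missing), and, when CD11b-negative replicate 1 was missing, for Cdkn1b (-0.18 to 0.31) and Cdkn2d (-0.15 to 0.70). None of these values was called, and the cause was not tested. Choosing probe sets by mean linear signal, added after seeing the data, kept 2 members higher. Signals near background, as for Cdkn2a and Cdkn1c, limit what can be detected.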
